A study of Arabidopsis thaliana with 9 samples.

Results

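The class III secretory peroxidases of Arabidopsis thaliana were examined as a gene family, by locus code, in seedlings of 2 mutants and their wild type. Of 60 listed loci, 43 had a probe set that names a single gene in the platform annotation, 7 shared 4 probe sets with a second locus, and 10 had none paired there and were not analysed here. The array has 22810 probe sets, of which 13513 name a single gene. The 28 family members whose signal exceeded their array's 40th percentile (28.3 to 30.4 signal units) in at least 3 of the 9 arrays were tested.

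RNA came from whole seedlings of the vtc1-1 mutant, the vtc2-1 mutant and Col-0 wild type, all 14 days old and kept on agar plates, and was measured on Affymetrix ATH1 arrays, with 3 arrays for each genotype. As background, both mutations lower ascorbate (vitamin C), because each weakens an enzyme of its synthesis. The labels describe vtc2-1 as an EMS-induced mutation in the Col-0 background, give a stock code but no background for vtc1-1, and name no sowing or batch. Each mutant is therefore 1 line. The p-values set each difference against the spread between these samples within genotypes, which may be technical.

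Class III peroxidases are heme enzymes secreted to the cell wall and the apoplast, the space outside the plasma membrane. They use hydrogen peroxide to oxidise phenolic compounds, which cross-links extensins and lignin precursors and stiffens the wall, and in another reaction cycle they can release reactive oxygen species. Many members are specific to roots, root hairs, lignifying vessels or tissue under attack, and ascorbate in the apoplast can reduce the phenoxyl radicals that they form.

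The arrays did not form 3 even groups. Across the tested probe sets, Col-0 replicate 3 correlated with Col-0 replicates 1 and 2 at r = 0.874 and 0.889, and with the mutant arrays at 0.916 to 0.931. Among the mutants, vtc2-1 replicate 3 correlated with the other vtc2-1 arrays at 0.918 and 0.920, against 0.944 between those arrays. These coefficients run across probe sets, which are not independent replicates. Of the tissue markers listed for whole seedlings, RCA of leaves (5751 to 8376 signal units over the 9 arrays) and PYK10 of roots (1726 to 4406) had a probe set paired and were tested. The listed flower and seed markers had none paired. In RNA of whole seedlings, fewer cells of a type and less RNA per cell cannot be told apart.

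The most frequent pattern among the peroxidases was a high signal in a single Col-0 array. Col-0 replicate 3 held the highest signal of the 9 arrays for 15 of the 28 tested members (53.6%), against 11.04% of all 14603 tested probe sets. In 13 of the 28 (46.4%) the signal of Col-0 replicate 3 was over 2-fold above both other Col-0 arrays, against 4.16% of all tested probe sets. These 13 were 5 genes of roots and root hairs (AT1G30870, AT4G26010, AT4G30170, AT5G17820 and AT5G64100), all 5 tested members of the oxidative burst and defence group (AT4G08770, AT4G08780, AT4G36430, AT5G39580 and AT5G64120), and AT1G49570, AT2G18980 and AT5G19890, to which no role was assigned. These roles were assigned by hand, with earlier results of these data known. The highest array was vtc2-1 replicate 2 for 7 members, vtc2-1 replicate 3 for 4, and Col-0 replicates 1 and 2 for 1 each. No tested member had its highest signal in a vtc1-1 array (8.51%, 9.13% and 9.19% of all) or in vtc2-1 replicate 1 (8.80%). The many maxima in Col-0 replicate 3 leave fewer for the other arrays. Within vtc1-1, replicate 3 was the highest array for 15 of 28 members (53.6%), against 34.8% of all tested probe sets. Within vtc2-1, replicate 2 was the highest array for 14 members (50%), against 31.2% of all. Replicate 3 was the highest for 10 (35.7%, against 34.8% of all) and the lowest for 15 (53.6%, against 37.6% of all).

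**Figure D1:**
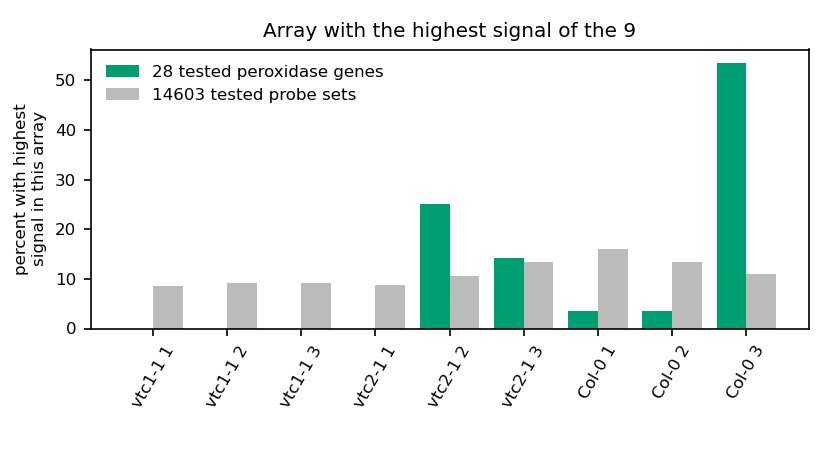
Share (percent, vertical axis) of the 28 tested peroxidase genes (green) and of all 14603 tested probe sets (grey) whose highest signal of the 9 arrays lay in the array named on the horizontal axis. Col-0 replicate 3 held 53.6% of the peroxidase maxima and 11.04% of all maxima, and the vtc1-1 arrays held none of the peroxidase maxima.

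**Figure D2:**
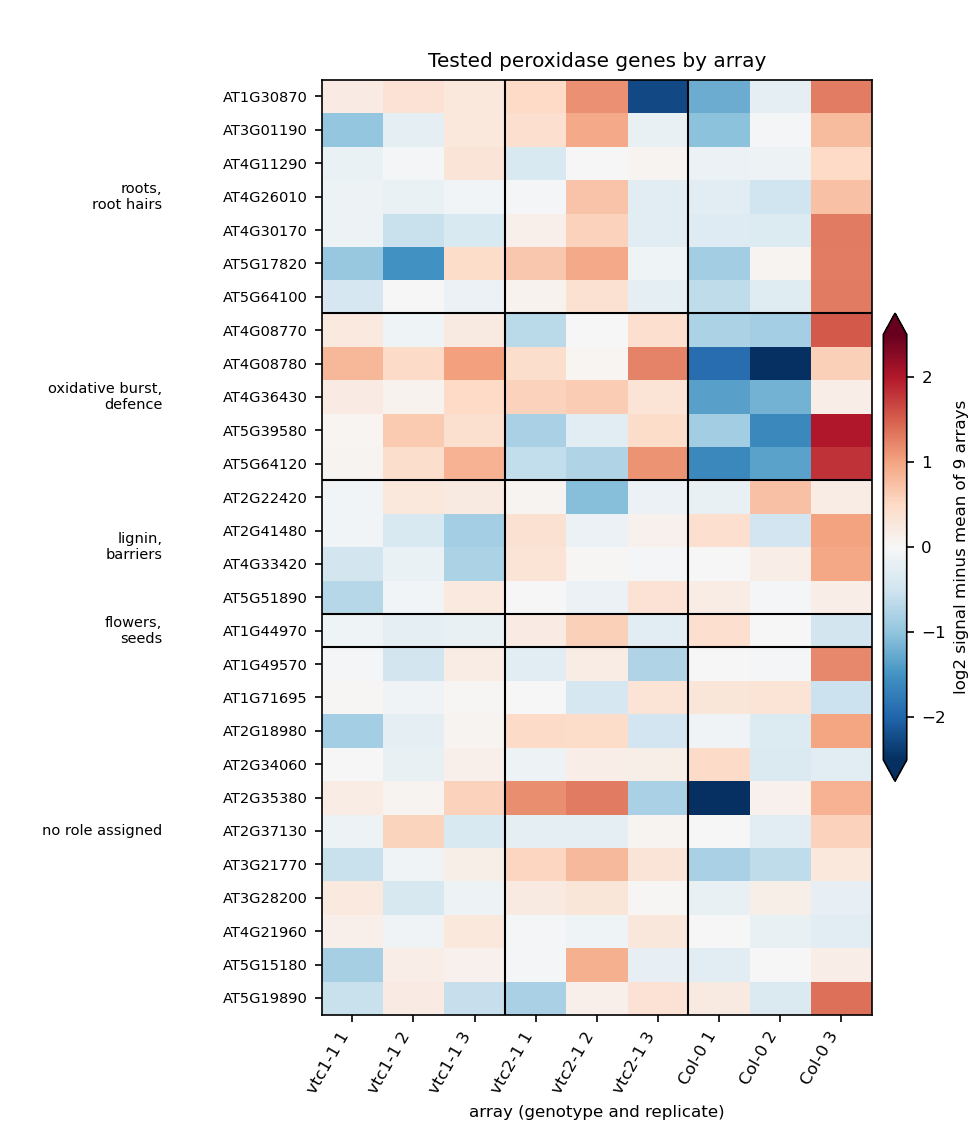
Log2 signal of each tested peroxidase gene minus its own mean over the 9 arrays (colour scale), with genes in rows grouped by assigned role and arrays in columns by genotype and replicate. Col-0 replicate 3 lies above the gene's mean (red) in all root and all defence members, while Col-0 replicates 1 and 2 lie below it (blue) in the 5 defence members.

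Peroxidases grouped by hand under the oxidative burst and defence were taken first. Some of them have other described roles, given below, so the group name is a label and not a result. Of 12 listed members, 7 had a probe set of their own and 5 were tested. AT4G36430 is a peroxidase grouped here with defence. Its signals were 126, 115 and 153 in vtc1-1, 162, 168 and 138 in vtc2-1, and 42.1, 47.9 and 121 in Col-0. All 3 vtc2-1 arrays lay above all 3 Col-0 arrays, whereas 1 vtc1-1 array lay below Col-0 replicate 3. The log2 difference from Col-0 was 1.06 ± 0.32 in vtc1-1 (SE, 3 arrays a group, adjusted p = 0.998 by limma) and 1.31 ± 0.32 in vtc2-1 (limma adjusted p = 0.674), so neither passed the threshold of 0.05.

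Without Col-0 replicate 3, which leaves only Col-0 replicates 1 and 2, AT4G36430 passed in both mutants. It was then 2.90-fold higher in vtc1-1 (log2 difference 1.54 ± 0.20, limma adjusted p = 0.00865) and 3.46-fold higher in vtc2-1 (1.79 ± 0.20, adjusted p = 0.00301). Over its 19 alternatives the adjusted p ran from 0.00109 to 0.9999 in vtc1-1 and from 0.00126 to 0.997 in vtc2-1. The log2 difference stayed above 0, at 0.77 to 1.54 and 1.03 to 1.88. AT4G36430 passed in 2 of the 19 in each mutant, both without Col-0 replicate 3. The lowest adjusted p in each came from also leaving out vtc2-1 replicate 3, an alternative chosen after seeing the data. Both comparisons share the Col-0 arrays, so they are not independent of each other.

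AT5G64120 (PRX71) takes part in lignin formation and in the response to wall damage. Its signals were 411, 529 and 712 in vtc1-1, 256, 231 and 860 in vtc2-1, and 129, 156 and 1376 in Col-0. The single Col-0 array at 1376 lay above every mutant array, and the other Col-0 arrays lay below all of them. With all arrays the log2 difference from Col-0 was 0.83 ± 0.73 in vtc1-1 and 0.29 ± 0.73 in vtc2-1. Without Col-0 replicate 3 it was 1.92 ± 0.42 (limma adjusted p = 0.0792) and 1.39 ± 0.42 (0.132), so it passed in neither.

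AT5G39580 is known to promote root hair growth in the cold. It had signals of 54.7, 82.7 and 69.3 in vtc1-1, 29.9, 43.2 and 72.5 in vtc2-1, and 28.8, 17.3 and 211 in Col-0. As for AT5G64120, Col-0 replicate 3 lay above every mutant array and the other Col-0 arrays lay below all of them. Its log2 differences of 0.53 ± 0.69 in vtc1-1 and -0.06 ± 0.69 in vtc2-1 did not pass. They were, without Col-0 replicate 3, 1.61 ± 0.38 (limma adjusted p = 0.100) and 1.03 ± 0.38 (0.220), so neither passed. In vtc2-1, replicate 3 was the highest of the 3 arrays for 4 of the 5 tested defence members, AT4G36430 being the exception.

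Prx37 (AT4G08770) and AT4G08780 are neighbours on chromosome 4. Prx37 is known from overexpression, which dwarfs the plant. Prx37 signals were 61.7, 48.5 and 60.7 in vtc1-1, 32.6, 52.1 and 69.8 in vtc2-1, and 30.1, 28.7 and 152 in Col-0. Both mutants overlapped with Col-0, and the log2 differences were 0.16 ± 0.52 and -0.05 ± 0.52. Leaving out Col-0 replicate 3 gave 0.95 ± 0.33 (limma adjusted p = 0.239) and 0.74 ± 0.33 (0.295). AT4G08780 had signals of 35.8, 28.1 and 40.7 in vtc1-1, 27.3, 20.9 and 47.5 in vtc2-1, and 5.33, 2.94 and 30.3 in Col-0. Its difference was 2.14 ± 0.80 in vtc1-1 (limma adjusted p = 0.998) and 1.94 ± 0.80 in vtc2-1 (0.783), the highest of all tested members in each. The size is uncertain because 2 of the 3 Col-0 signals lay far below the 40th percentile of their array. Only 4 arrays exceeded that percentile, namely vtc1-1 replicates 1 and 3, vtc2-1 replicate 3 and Col-0 replicate 3. The gene thus met the filter for testing through mutant arrays, where its signal was higher. With 16 added to each signal before the log2 step it was 0.93 and 0.81, and without Col-0 replicate 3 it was 3.12 ± 0.72 (limma adjusted p = 0.0904) and 2.92 ± 0.72 (0.0741).

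**Figure D3:**
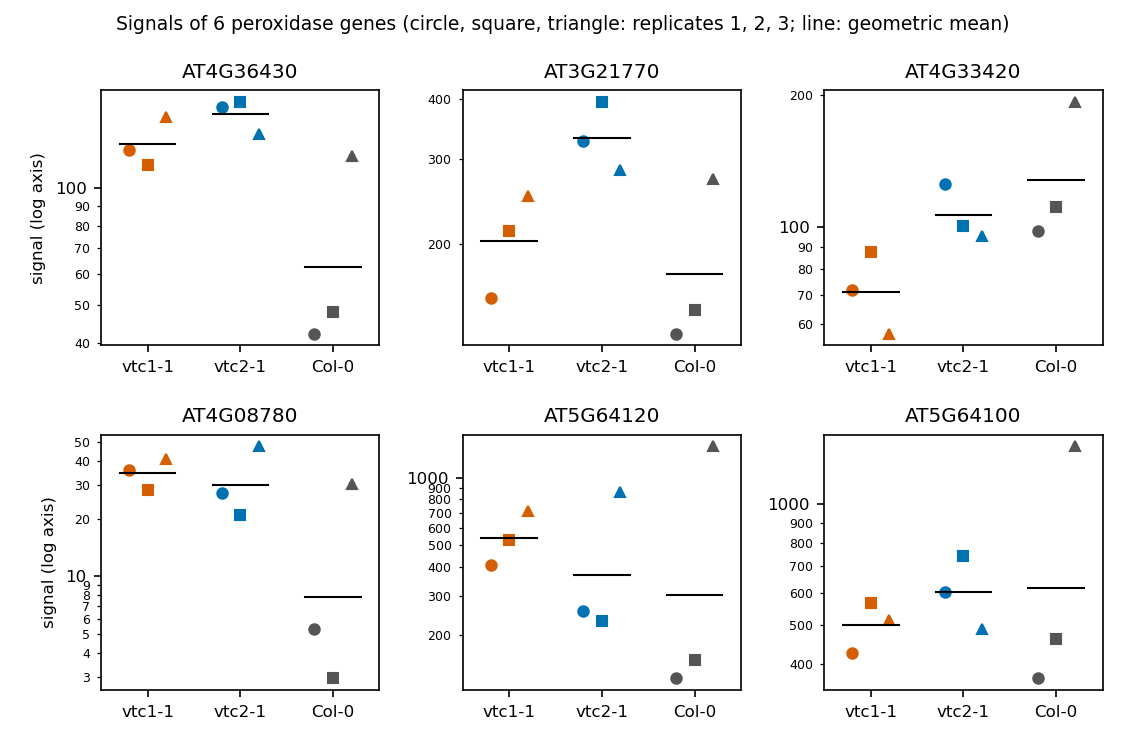
Signal (log vertical axis, different range in each panel) of 6 peroxidase genes in vtc1-1, vtc2-1 and Col-0, with 1 symbol per array (circle, square and triangle for replicates 1, 2 and 3) and a line at the geometric mean. The Col-0 triangle stands above the other Col-0 symbols in all 6 panels, and for AT5G64120 and AT5G64100 it is the highest of all arrays, at signals of 1376 and 1397.

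Peroxidases of roots and root hairs included extensin cross-linkers of growing root hairs. Of 15 listed members, 9 had a probe set of their own and 7 were tested. None passed in any comparison. Their median log2 difference from Col-0 was -0.21 in vtc1-1 and -0.04 in vtc2-1, and without Col-0 replicate 3 it was 0.24 and 0.53, with all 7 above 0 in vtc2-1. Col-0 replicate 3 was the highest Col-0 array for 7 of 7, against 33.4% of all tested probe sets. Leaving it out therefore raises all 7 differences by construction. In vtc2-1 replicate 2 was the highest (31.2% of all) and replicate 3 the lowest (37.6% of all) for 6 of 7 each. The exception in both was AT4G11290. The 7 genes were measured on the same arrays and are not independent replicates.

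AT5G64100, which acts in root hair growth in the cold, had signals of 426, 566 and 514 in vtc1-1, 604, 744 and 488 in vtc2-1, and 367, 460 and 1397 in Col-0. Col-0 replicate 3 lay 3.40-fold above the geometric mean of the other Col-0 arrays and above every mutant array. The log2 differences were -0.31 ± 0.38 in vtc1-1 and -0.04 ± 0.38 in vtc2-1, and 0.28 ± 0.20 and 0.55 ± 0.20 without Col-0 replicate 3. AT5G64100 and AT5G64120 are near neighbours by locus code, and both had their highest signal in Col-0 replicate 3, while vtc2-1 replicate 3 was the lowest vtc2-1 array for AT5G64100 and the highest for AT5G64120.

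AT5G17820, a peroxidase of roots, had signals of 146, 178 and 85.5 in vtc2-1, 47.2, 32.0 and 127 in vtc1-1, and 49.99, 96.4 and 222 in Col-0. The genotypes overlapped. Its log2 difference was 1.18 ± 0.54 in vtc2-1 against vtc1-1 (limma adjusted p = 0.998), the highest of the 28 members in that comparison, and -0.83 ± 0.54 in vtc1-1 and 0.35 ± 0.54 in vtc2-1 against Col-0. The values against Col-0 without its replicate 3 were -0.27 ± 0.48 and 0.91 ± 0.48.

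AT3G01190 had signals of 85.4, 143 and 200 in vtc1-1, 223, 321 and 145 in vtc2-1, and 81.3, 161 and 287 in Col-0. AT4G30170 had 89.7, 66.5 and 74.8 in vtc1-1, 107, 146 and 79.6 in vtc2-1, and 77.8, 77.3 and 240 in Col-0. In both genes the genotypes overlapped, and vtc2-1 replicate 3 was below the other vtc2-1 arrays. AT1G30870 ranged from 46.7 to 52.3 in vtc1-1, from 8.47 to 89.3 in vtc2-1 and from 17.2 to 98.9 in Col-0. AT4G26010, known to cross-link extensins in root hairs, ranged from 65.5 to 70.2, from 61.2 to 121 and from 51.9 to 123 in the same order.

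Root markers were set beside these values. PYK10, a beta-glucosidase of roots, had signals of 2031, 1726 and 2318 in vtc1-1, 4238, 4406 and 2086 in vtc2-1, and 2465, 2623 and 3001 in Col-0. As in the root peroxidases, vtc2-1 replicate 3 was the lowest vtc2-1 array and Col-0 replicate 3 the highest Col-0 array, although the Col-0 arrays differed less in PYK10. EXPA7 and EXPA18, expansins of root hairs, were the 2 of 11 listed root hair markers with a probe set paired. EXPA7 was at 31.7, 30.1 and 39.6 in vtc2-1 and at 41.6, 33.3 and 56.9 in Col-0. EXPA18 was at 30.8, 50.4 and 35.8 in vtc2-1 and at 22.3, 25.8 and 47.3 in Col-0. For both, Col-0 replicate 3 was the highest Col-0 array, but vtc2-1 replicate 3 was not the lowest vtc2-1 array, unlike in PYK10. The part of root content in the peroxidase values was not tested.

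**Figure D4:**
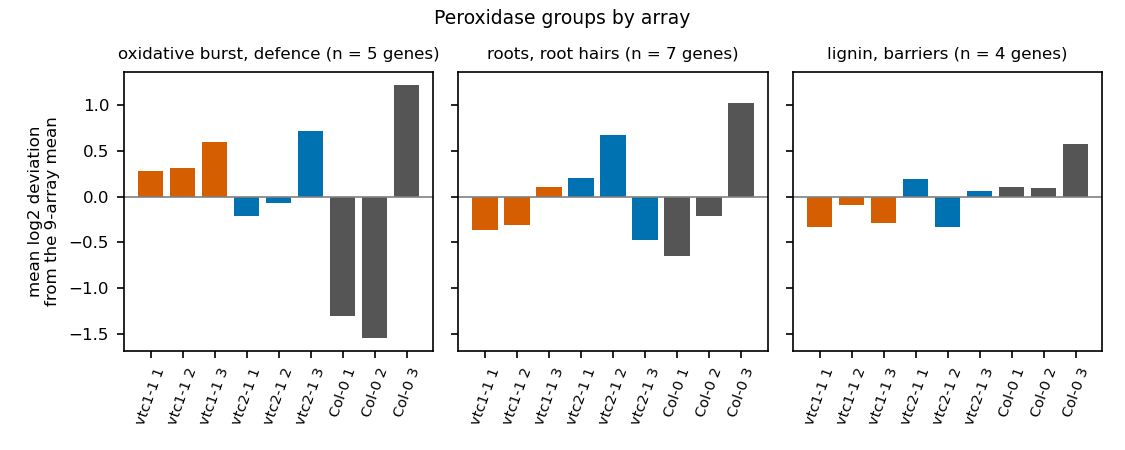
Mean over tested genes of the log2 signal minus the gene's 9-array mean (vertical axis), by array, for peroxidases of the oxidative burst and defence (5 genes), of roots and root hairs (7 genes) and of lignin and barriers (4 genes). In the first panel Col-0 replicates 1, 2 and 3 stand at -1.31, -1.55 and 1.22 and the vtc1-1 arrays at 0.28 to 0.60, while in the second vtc2-1 replicates 2 and 3 stand at 0.67 and -0.47.

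Peroxidases tied to lignin and diffusion barriers followed. Of 6 listed members, 5 had a probe set of their own and 4 were tested. AT4G33420, a peroxidase of differentiating xylem vessels, had signals of 71.7, 87.5 and 57.1 in vtc1-1, 125, 100 and 95.4 in vtc2-1, and 97.9, 111 and 193 in Col-0. All vtc1-1 arrays lay below every other array. The log2 difference was -0.85 ± 0.26 in vtc1-1 against Col-0 (limma unadjusted p = 0.00604, adjusted p = 0.998) and -0.55 ± 0.22 without Col-0 replicate 3 (adjusted p = 0.329), over alternatives from 0.277 to 1. In vtc2-1 against vtc1-1 it was 0.58 ± 0.26 (adjusted p = 0.998).

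AT2G41480 (PRX25), which takes part in stem lignification, differed by -0.75 ± 0.38 in vtc1-1 and -0.20 ± 0.38 in vtc2-1 from Col-0, with signals of 21.6 to 37.0, 35.3 to 50.6 and 27.9 to 78.5 in vtc1-1, vtc2-1 and Col-0, and by -0.41 ± 0.39 and 0.14 ± 0.39 without Col-0 replicate 3. AT5G51890, a peroxidase of tracheary elements, differed by -0.29 ± 0.24 and -0.03 ± 0.24. AT2G22420, known from lignification, differed by -0.11 ± 0.41 and -0.63 ± 0.41. All 4 tested members of this group had values below 0 in both mutants, some by less than 1 standard error, and none passed. Without Col-0 replicate 3 all 4 stayed below 0 in vtc1-1 and 2 of 4 in vtc2-1. AT5G64120, also tied to lignin formation but grouped here with defence, stood above 0 with all arrays, at 0.83 ± 0.73 and 0.29 ± 0.73. PRX52 (AT5G05340), which lignifies interfascicular fibres, was below the 40th percentile on every array, with a highest signal of 28.5.

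The other tested members were 11 with no assigned role and 1 of the flower and seed group. AT3G21770 had signals of 327, 396 and 285 in vtc2-1, against 154, 213 and 252 in vtc1-1 and 130, 146 and 273 in Col-0. All vtc2-1 arrays lay above every other array, and Col-0 replicate 3 again stood above the other Col-0 arrays. The log2 difference in vtc2-1 was 0.95 ± 0.27 against Col-0 (limma adjusted p = 0.685) and 0.72 ± 0.27 against vtc1-1 (0.998). In vtc1-1 it was 0.23 ± 0.27 against Col-0. Without Col-0 replicate 3 AT3G21770 passed in vtc2-1, 2.42-fold higher than Col-0 (1.27 ± 0.22, limma adjusted p = 0.026). Over its 19 alternatives the limma adjusted p ran from 0.0131 to 0.997, and the 2 that passed both left out Col-0 replicate 3.

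PRXR1 (AT4G21960) had signals of 5077, 4380 and 5554 in vtc1-1, 4556, 4343 and 5649 in vtc2-1, and 4718, 4103 and 3858 in Col-0. Its log2 differences of 0.24 ± 0.16 and 0.19 ± 0.16 did not pass, and Col-0 replicate 3 was its lowest array. AT1G71695 had 485, 445 and 488 in vtc1-1, 476, 354 and 604 in vtc2-1, and 585, 599 and 328 in Col-0, again with Col-0 replicate 3 as the lowest. AT2G37130 had 366, 586 and 307 in vtc1-1, 341, 342 and 416 in vtc2-1, and 400, 333 and 596 in Col-0. These 3 genes differed from Col-0 by -0.24 to 0.24 on the log2 scale in either mutant.

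AT2G35380 differed by 1.11 ± 0.91 in vtc1-1 and 1.37 ± 0.91 in vtc2-1, but its Col-0 signals were 2.55, 29.9 and 51.2, and without Col-0 replicate 1, the lowest, the difference in vtc1-1 was -0.21. AT5G19890 stood at -0.72 ± 0.43 and -0.53 ± 0.43, AT1G49570 at -0.49 ± 0.38 and -0.67 ± 0.38, and AT2G18980 at -0.53 ± 0.37 and -0.04 ± 0.37 in vtc1-1 and vtc2-1. In these last 3 genes Col-0 replicate 3 was the highest Col-0 array, at 135, 93.7 and 141, and without it the values moved to -0.24, -0.08 and -0.12 in vtc1-1 and to -0.04, -0.26 and 0.37 in vtc2-1. AT1G44970, which in anthers cross-links extensin of the tapetum, was the only tested member of the flower and seed group, at 36.9, 34.2 and 35.04 in vtc1-1, 45.5, 60.04 and 32.8 in vtc2-1, and 53.2, 39.8 and 29.01 in Col-0, all overlapping. AT2G34060, AT3G28200 and AT5G15180 differed from Col-0 by -0.16 to 0.03 in vtc1-1 and by 0.10 to 0.27 in vtc2-1.

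**Figure D5:**
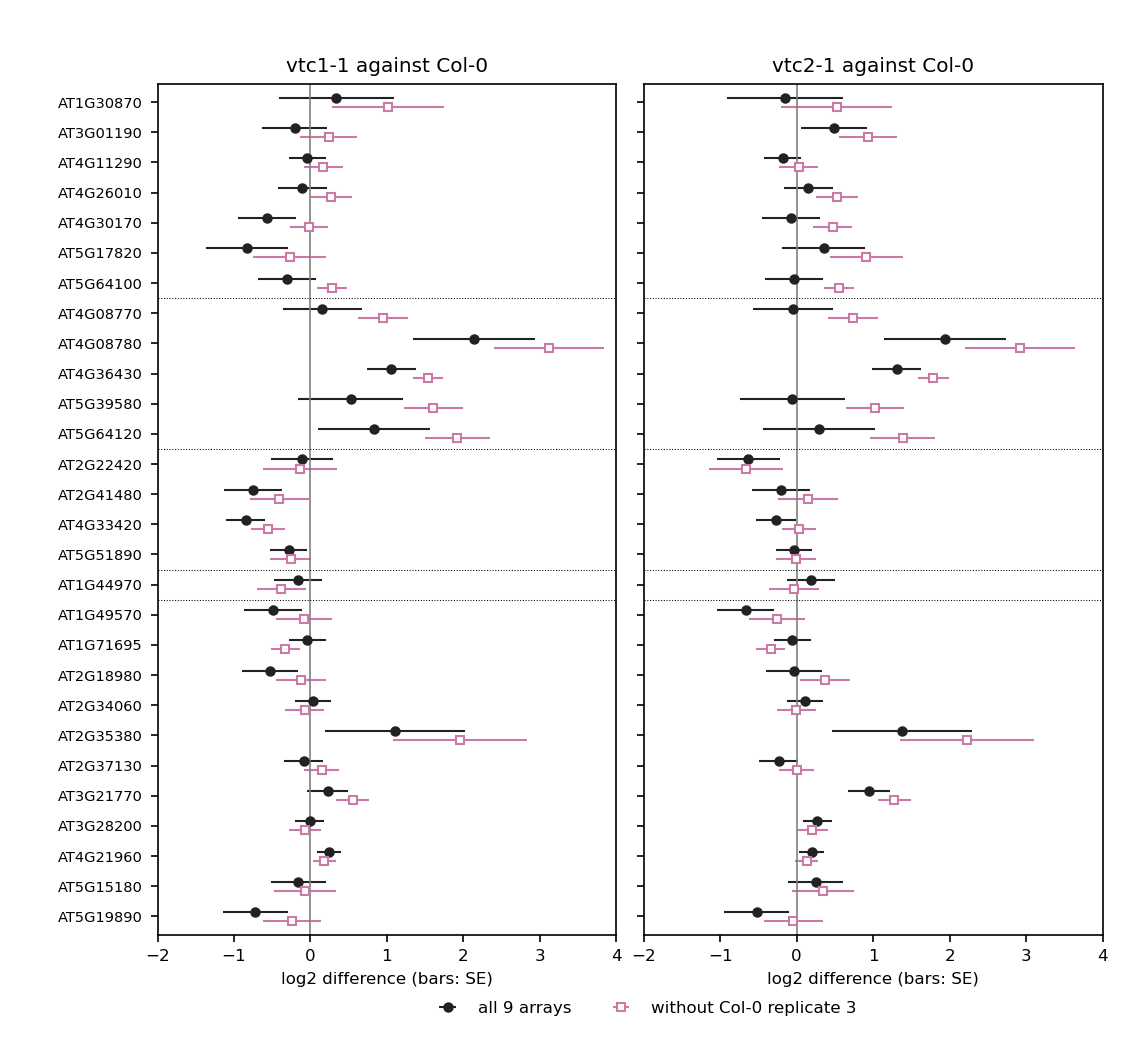
Log2 difference from Col-0 of each tested peroxidase gene (horizontal axis, bars show the SE) in vtc1-1 (left) and vtc2-1 (right), with all 9 arrays (filled circles) and without Col-0 replicate 3 (open squares). The squares of all 5 defence members lie to the right of 0 in both panels, up to 3.12 and 2.92 for AT4G08780. Col-0 replicate 3 was the highest Col-0 array for all 5, so leaving it out moves them to the right by construction.

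Over the 28 tested members, limma called 0 in each of the 3 comparisons at an adjusted p under 0.05. In vtc1-1 against Col-0, where 0% of all tested probe sets were called, 3 members (10.7%) had an unadjusted p under 0.05, namely AT4G36430, AT4G33420 and AT4G08780, against 4.13% of all. In vtc2-1 against Col-0, where 0.00685% were called, 3 members did, namely AT4G36430, AT3G21770 and AT4G08780, against 6.28% of all. In vtc2-1 against vtc1-1, with 0.00685% called as well, AT3G21770, AT4G33420 and AT5G17820 did, against 3.61% of all. AT4G08780, counted in both mutants against Col-0, exceeded the 40th percentile in only 4 arrays and met the filter through mutant arrays.

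Separation of the groups without overlap was near its background in each direction. In vtc1-1 against Col-0, 0 members were higher (4.36% of all tested probe sets) and 1 was lower (3.57% of members and 3.58% of all). In vtc2-1 against Col-0, 2 members were higher (7.14% of members and 6.27% of all) and 0 were lower (4.52% of all). In vtc2-1 against vtc1-1, 2 were higher (7.14% of members and 5.69% of all) and 0 were lower (4.56% of all). The median log2 difference of the tested members was -0.10 in vtc1-1 against Col-0, -0.04 in vtc2-1 against Col-0 and 0.25 in vtc2-1 against vtc1-1, beside medians of 0.01, 0.01 and 0.00 over all tested probe sets.

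Without Col-0 replicate 3, limma called 1 member higher in vtc1-1, AT4G36430, where 0.226% of all tested probe sets were called higher. In vtc2-1 it called 2 higher, AT4G36430 and AT3G21770, where 0.548% were. No member was called lower in either, where 14 and 42 of the 14603 tested probe sets were. The members' median log2 difference was then 0.06 in vtc1-1 and 0.35 in vtc2-1, with 14 and 20 of 28 above 0, beside 48.1% and 49.3% of all tested probe sets and medians over these of -0.02 and -0.01. With all arrays 10 and 13 of 28 were above 0, beside 51.2% and 51.9%. Col-0 replicate 3 was over 2-fold above both other Col-0 arrays in 13 of the 28 members. Leaving it out therefore raises the differences of these members by construction. The calls, medians and counts without it describe that array's influence and are no separate support for a difference between genotypes.

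Of the shared probe sets, 3 were tested, each shared by neighbouring genes, so their signals cannot be assigned to either gene. The pair AT2G18140 and AT2G18150 had signals of 41.6, 55.1 and 126 in vtc1-1, 82.2, 103 and 83.8 in vtc2-1, and 41.9, 31.9 and 51.2 in Col-0. All vtc2-1 arrays lay above all Col-0 arrays, and the log2 difference was 1.13 ± 0.35 in vtc2-1 (limma adjusted p = 0.685) and 0.69 ± 0.35 in vtc1-1. The pair AT2G38380 and AT2G38390, expressed in roots, had 289, 327 and 595 in vtc1-1, 757, 866 and 406 in vtc2-1, and 226, 220 and 682 in Col-0. Its difference in vtc2-1 was 0.99 ± 0.42 with all arrays (limma adjusted p = 0.783) and 1.53 ± 0.31 without Col-0 replicate 3 (adjusted p = 0.0444). Over its alternatives the limma adjusted p ran from 0.00527 to 0.997, and the 2 that passed both left out Col-0 replicate 3. The pair AT4G37520 and AT4G37530 had 242, 318 and 262 in vtc1-1, 291, 272 and 480 in vtc2-1, and 213, 170 and 547 in Col-0, with differences of 0.01 ± 0.36 and 0.31 ± 0.36.

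The 15 members with a probe set of their own that were not tested had signals of at most 76.6. In the fit without the filter, none of them was called in any comparison, and the smallest adjusted p was 0.804. This belonged to AT1G14550, a defence-related member chosen here after its values were seen. Its signals were 2.24, 1.57 and 16.6 in vtc1-1, 9.37, 6.31 and 3.84 in vtc2-1, and 25.7, 22.8 and 43.1 in Col-0. The mutant arrays all lay below the Col-0 arrays, but only 1 array exceeded its 40th percentile. AT3G49960, a root member chosen in the same way, had 10.9, 25.0 and 15.3 in vtc2-1, against 1.64, 1.90 and 5.16 in vtc1-1 and 1.43, 3.72 and 14.5 in Col-0, all below that percentile.

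Genes that act beside the peroxidases were thinly covered, with 11 of 112 listed genes paired with a probe set and 7 tested. None of the 7 was called in any comparison. HCT, an enzyme of lignin precursor synthesis, had signals of 519 to 544 in vtc1-1, 489 to 594 in vtc2-1 and 530 to 667 in Col-0, with log2 differences of -0.19 and -0.15 from Col-0. EXT2, a hydroxyproline-rich wall protein of the kind that peroxidases cross-link, stood at -0.04 in vtc1-1 and 0.04 in vtc2-1, on a probe set of a type that can detect related transcripts. GSO1, a receptor kinase needed for an intact Casparian strip, stood at -0.08 in vtc1-1 and -0.05 in vtc2-1. The 3 paired NADPH oxidases, which supply superoxide to the apoplast, were too dim to be tested, with signals of at most 27.8.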

How the data were processed

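Each sample was hybridised to its own 1-colour array, per the labels. The authors' deposited values are MAS5 signal intensities on a linear scale, from GCOS per the submitters' processing notes, and already share 1 trimmed mean, as the values show. Such scaling hides a shift of total RNA, and dim probe sets vary most after the log2 step. The number of arrays limits the precision.

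Log2 signals, with no pseudocount, were fitted with limma 3.58.1 (R 4.3.3; group means of all 9 arrays, eBayes with an intensity trend) for the 14603 probe sets above their array's 40th percentile in at least 3 arrays, controls left out. P-values were adjusted by Benjamini-Hochberg over all of these, threshold 0.05. The procedure was run on simulated data with independent noise and no deviating array, so that run does not cover an array like Col-0 replicate 3. Values after ± are limma standard errors. Fits without Col-0 replicate 3 rest on Col-0 replicates 1 and 2 alone for the wild type. Figures were drawn with matplotlib 3.10.9.

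Members were matched through the platform annotation and the TAIR10.1 gene table, with 1 probe set per gene, that of the highest mean log2 signal. Values were to be given for called members, the 6 highest and 6 lowest differences per comparison, the 5 brightest members, up to 3 per role group, tested neighbour pairs and up to 4 genes per other list; others were added. Roles were assigned by hand. Members, lists and roles were chosen with earlier results of these data known. Alternatives changed the filter, scaling, pseudocount, variance model, samples in the fit, array weights, the probe sets taken, a replicate block and the arrays left out.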

Additional observations from a re-analysis of the deposited data

How the results depend on the processing

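The count of all probe sets called by limma ranged, when 1 array was left out, from 0 to 47 in vtc1-1 against Col-0 (0 with all arrays) and from 0 to 122 in vtc2-1 against Col-0 (1 with all arrays), the highest without Col-0 replicate 3 in both. Peroxidase genes called ranged from 0 to 1 and from 0 to 2 in the same way. Their median log2 difference ranged from -0.23 (without Col-0 replicate 1) to 0.06 (without Col-0 replicate 3) in vtc1-1 against Col-0, from -0.16 to 0.35 in vtc2-1 against Col-0, and from 0.0759 to 0.35 in vtc2-1 against vtc1-1, and it was 0.32 in vtc2-1 against Col-0 with array weights. With Col-0 replicate 3 and vtc2-1 replicate 3 both left out, an alternative chosen after seeing the data, limma called 181 probe sets and 3 peroxidase genes in vtc1-1 against Col-0, 116 and 2 in vtc2-1 against Col-0 and 42 and 1 in vtc2-1 against vtc1-1, and the members' median in vtc2-1 against Col-0 was 0.52. The added calls were AT5G64120 (adjusted p = 0.000277) and AT5G39580 (0.0384) in vtc1-1, and AT5G64120 between the mutants, at -1.14 in vtc2-1 against vtc1-1 (0.0371). Without an intensity trend 2 probe sets were called in vtc2-1 against vtc1-1 and 0 in vtc2-1 against Col-0, and with only the groups compared it was 0 in vtc2-1 against Col-0. The cause was not tested.

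The sign of the difference changed under some alternative for 10, 13 and 10 of the 23 named genes in vtc1-1 against Col-0, vtc2-1 against Col-0 and vtc2-1 against vtc1-1. A difference under 1 standard error was taken to have no direction, and 1 gene per comparison changed sign from a larger one. With 1 array left out, AT2G35380 ranged from -0.21 to 1.96 in vtc1-1 against Col-0, AT4G33420 from -0.46 to 0.027 in vtc2-1 against Col-0 (0.10 without both arrays) and AT5G51890 from -0.020 to 0.47 in vtc2-1 against vtc1-1. Of 1305 alternative values of single genes, 1296 stayed on the same side of the threshold. No member was called with all arrays, so this count cannot measure stability. The 9 that crossed all came from alternatives without Col-0 replicate 3. With the replicate number as a block, limma called 0, 1 and 1 probe sets and 0 peroxidase genes in each comparison. Deviations of same-numbered arrays correlated at -0.07 to 0.20, the highest between Col-0 and vtc2-1 replicate 3. Differently numbered arrays were not set beside them, so this cannot settle whether the numbers pair the samples. The numbers were used as a block only in that alternative.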
